A study of Mus musculus with 8 samples.

Results

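H3K9ac peaks from the small intestinal crypts of fasted mice given tetracycline were compared with those of fasted mice without it. Merging the overlapping peaks of the 4 deposited lists, 2 per state, on chromosomes 1 to 19, X and Y gave 232904 regions, out of 295928 regions in the 8 H3K9ac lists of the whole series. Both states are 1 GEO sample each, of 8 in the series, and the 4 lists are part of 16. All mice were 9-week-old C57BL/6J males fasted for 24 h; Fast_(+Tetra) mice also received tetracycline for 21 days and Fast_(-Tetra) mice did not. Chromatin came from crypt cells released with EDTA and trypsin and labelled as small intestinal epithelial cells, and was profiled by CUT&Tag, in which an antibody steers a transposase to a histone mark so that the DNA beside the mark is cut, tagged and sequenced. The labels give an H3K9ac antibody and a rabbit IgG for each sample, and do not say how many mice each list rests on, whether they were pooled, or whether lists 1 and 2 come from separate animals. The spread between lists may therefore be technical. A region or gene is called one-state here when it had a peak in both lists of 1 state and in neither list of the other, and a gene counts as marked if its start or its end had a peak no farther than 1 kb off.

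Acetylation of lysine 9 on histone H3 sits at the starts of genes that are being transcribed and, with H3K27ac, at active enhancers. Crypts hold the stem cells, Paneth cells and dividing progenitors that renew the intestinal lining, and their epithelium answers gut bacteria by switching on antimicrobial lectins, serum amyloid A proteins and an oxidase that makes hydrogen peroxide. Tetracyclines block bacterial ribosomes, deplete intestinal bacteria and can also slow the ribosomes of mitochondria, which descend from bacteria. The comparison addresses whether the H3K9ac pattern of the fasted crypt differs after tetracycline; bacteria were not measured in these lists.

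The promoters at which the results below turn are shown as the 250 bases before the RefSeq start site (GRCm38.p6), written 5′ to 3′ in the direction of transcription. Where a gene has several starts, the start is the one in the RefSeq promoter table. Reg3b and Duoxa2 are microbe-induced defence genes, Agr2 and Nrarp are the genes whose constant peaks narrowed or widened most, Prepl and Coro7 are among the strongest genes marked only with tetracycline, and Rassf6 among the strongest marked only without it. Capitals mark matches on either strand to the TATA box, spelled as TATAAA, to the CCAAT box, to the GC box, spelled as GGGCGG, to the palindrome TTCNNNGAA that STAT factors bind, and to the E-box with the letters CACGTG. Neighbouring matches can overlap, as do the 2 GC boxes of Nrarp.
Reg3b, chr6:78370635-78370884, plus strand: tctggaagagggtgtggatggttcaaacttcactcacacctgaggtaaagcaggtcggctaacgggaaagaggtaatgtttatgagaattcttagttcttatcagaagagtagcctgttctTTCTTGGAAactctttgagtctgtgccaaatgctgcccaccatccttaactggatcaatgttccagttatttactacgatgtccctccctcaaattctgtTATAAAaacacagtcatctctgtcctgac
Duoxa2, chr2:122298650-122298899, plus strand: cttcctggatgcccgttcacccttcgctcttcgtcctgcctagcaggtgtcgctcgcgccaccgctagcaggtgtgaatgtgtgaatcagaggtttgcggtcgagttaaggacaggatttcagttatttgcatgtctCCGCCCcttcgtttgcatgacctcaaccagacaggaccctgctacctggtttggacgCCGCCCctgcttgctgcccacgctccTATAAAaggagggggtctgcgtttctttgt
Agr2, chr12:35992675-35992924, plus strand: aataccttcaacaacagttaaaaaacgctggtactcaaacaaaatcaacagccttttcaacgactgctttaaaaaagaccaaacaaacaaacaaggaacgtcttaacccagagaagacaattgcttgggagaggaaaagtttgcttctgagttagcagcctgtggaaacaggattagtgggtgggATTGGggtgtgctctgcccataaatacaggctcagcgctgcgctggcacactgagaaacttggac
Nrarp, chr2:25180508-25180757, plus strand: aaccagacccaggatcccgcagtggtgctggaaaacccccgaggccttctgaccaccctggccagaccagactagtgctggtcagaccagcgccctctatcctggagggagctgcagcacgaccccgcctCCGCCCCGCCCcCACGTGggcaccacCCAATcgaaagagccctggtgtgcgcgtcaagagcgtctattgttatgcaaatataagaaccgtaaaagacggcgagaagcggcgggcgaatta
Prepl, chr17:85090275-85090524, minus strand: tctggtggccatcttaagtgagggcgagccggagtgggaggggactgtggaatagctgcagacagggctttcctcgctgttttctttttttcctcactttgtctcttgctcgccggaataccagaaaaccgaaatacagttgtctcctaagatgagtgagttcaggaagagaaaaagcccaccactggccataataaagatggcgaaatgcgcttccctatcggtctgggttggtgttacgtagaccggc
Coro7, chr16:4679721-4679970, minus strand: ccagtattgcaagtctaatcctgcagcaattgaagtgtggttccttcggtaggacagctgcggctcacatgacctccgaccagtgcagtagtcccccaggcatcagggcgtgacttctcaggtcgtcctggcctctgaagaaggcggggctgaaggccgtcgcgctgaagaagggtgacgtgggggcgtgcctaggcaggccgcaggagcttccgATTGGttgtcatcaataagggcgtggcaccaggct
Rassf6, chr5:90640528-90640777, minus strand: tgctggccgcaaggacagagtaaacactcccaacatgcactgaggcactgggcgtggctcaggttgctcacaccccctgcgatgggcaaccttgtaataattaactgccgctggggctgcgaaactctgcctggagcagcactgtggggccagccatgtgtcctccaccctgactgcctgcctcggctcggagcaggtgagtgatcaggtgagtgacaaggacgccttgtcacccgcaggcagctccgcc
The Reg3b stretch held 3 CpG dinucleotides, a TATA box with its first base at -29 and a STAT-type match at -129. Among the 17492 protein-coding genes with a promoter sequence, the TATA box occurred in 12.4%, the STAT-type palindrome in 6.69%, the CCAAT box in 36.3%, the GC box in 42.7% and the E-box in 6.64%. Duoxa2 carried a TATA box at -30 and 2 GC boxes, and had 15 CpG. The Agr2 and Nrarp stretches held 5 and 18 CpG, with a CCAAT match in each. Prepl, Coro7 and Rassf6 held 11, 14 and 10 CpG and no TATA box, and Coro7 had a CCAAT match at -35. A match describes these letters only.

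Without tetracycline, lists 1 and 2 held 99050 and 35889 H3K9ac peaks, and with tetracycline they held 97764 and 53313. The 2 lists of a state differed by more than the states did, and the ranges overlapped: the mean difference was 0.28 on the log2 scale (exact permutation p = 1.0, two-sided, 2 lists against 2, smallest possible p 0.33). Covered length was 47.2 and 27.1 Mb without tetracycline and 47.2 and 30.5 Mb with it, a mean log2 difference of 0.08 (exact permutation p = 1.0). Of the peaks, 12.7% and 26.7% lay at gene ends without tetracycline, and 13.5% and 18.0% with it, a difference of -3.98 percentage points (exact permutation p = 1.0). These peaks marked 11008 and 9474 of 21887 protein-coding genes without tetracycline and 11640 and 9440 with it. The names of the deposited lists call the data downsampled and no read totals are given, so the depth behind each peak is unknown. Epithelial identity genes, the check of the tissue label, were marked in 13 and 13 of 14 cases without tetracycline and 14 and 13 with it, and Epcam, Vil1 and Cdx2 were marked in all 4 lists. Ptprc (CD45, leukocytes), Pecam1 and Cdh5 (endothelium), and Dcn, Pdgfra and Col1a2 (fibroblasts) were marked in none.

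Peaks narrower than 500 bp made up most of the gap between lists 1 and 2 of a state. Peaks exactly 200 bp wide numbered 17029 and 472 without tetracycline and 19873 and 16636 with it. They formed 31.2% of the second +Tetra list and 1.32% of the second -Tetra list, so the lists of number 2 differed between the states in this narrow class. Peaks of at least 500 bp numbered 36039 and 21150 without tetracycline and 35279 and 18460 with it, and the states then differed by -0.11 on the log2 scale, the opposite sign (exact permutation p = 0.667). At that width 26.0% and 40.5% of -Tetra peaks and 28.6% and 43.4% of +Tetra peaks lay at gene ends, which also turned the sign of that difference (2.71 points, exact permutation p = 0.667).

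**Figure D1:**
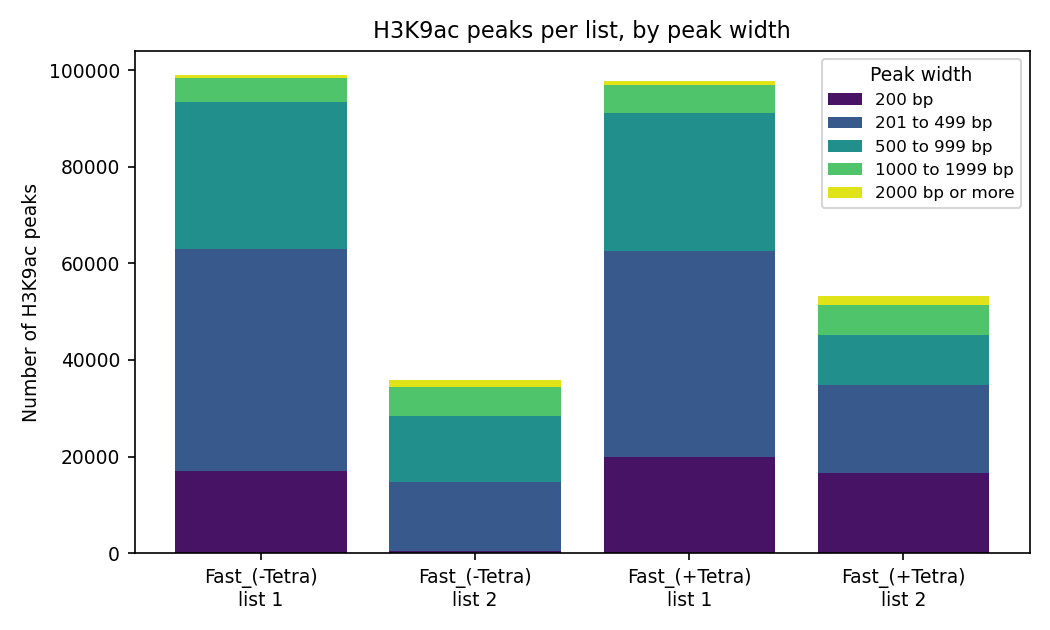
Number of H3K9ac peaks in each of the 4 Fast lists (bars from 0), divided by peak width in bp. The first lists hold 99050 and 97764 peaks, and the second +Tetra list has 16636 peaks of exactly 200 bp against 472 in the second -Tetra list.

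Recurrence rose with peak width. Of the 200 bp peaks, 0.693% to 2.43% were overlapped in any 1 other list. Of peaks from 1 kb to just under 2 kb wide, 71.1% to 82.4% were, and of those of 2 kb or more, 81.9% to 94.1%. Recurrence in a list of the other state was about as frequent as in the other list of the same state: of the peaks of 1 to 2 kb in the first -Tetra list, 76.8% recurred in the second -Tetra list, and 82.4% and 72.4% in the 2 +Tetra lists. For the second +Tetra list these shares were 78.1% in the first +Tetra list, and 73.2% and 72.8% in the -Tetra lists. Covered bases gave the same picture. The Jaccard index, the bases covered by both lists over those covered by either, was 0.154 between the -Tetra lists and 0.166 between the +Tetra lists, and it ranged from 0.123 to 0.25 between lists of different states. The largest value joined the second -Tetra and the second +Tetra list. With peaks of at least 500 bp the values were 0.226 and 0.254 within the states and 0.19 to 0.342 between them.

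**Figure D2:**
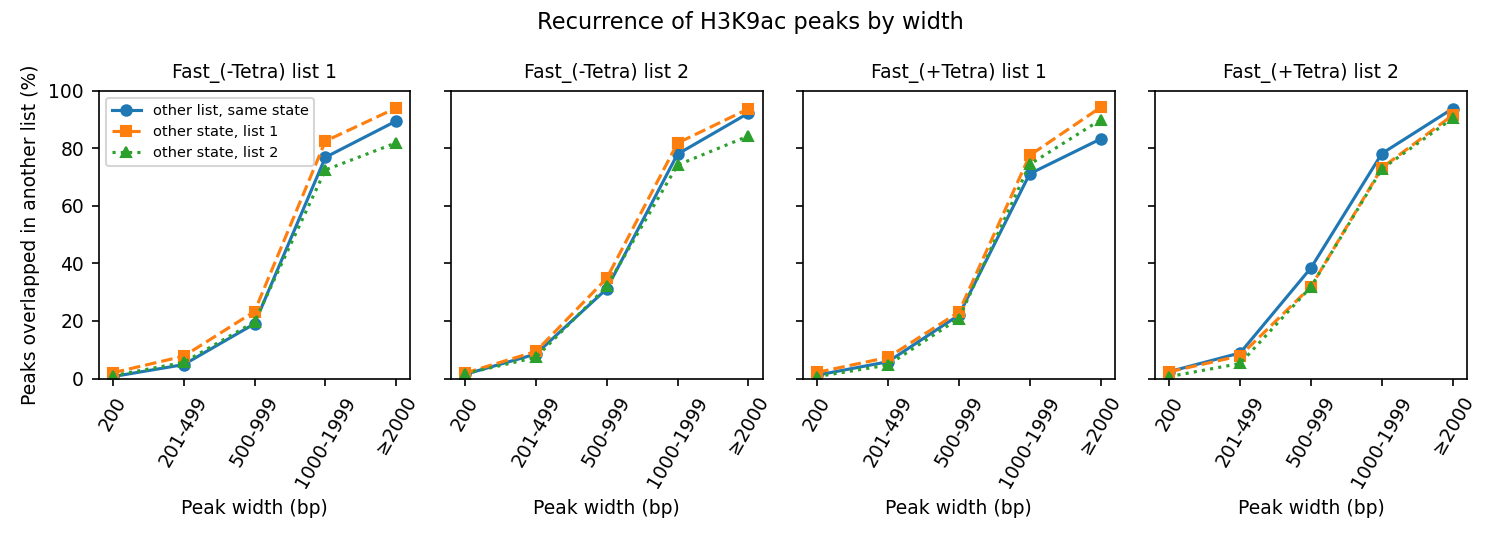
Share of H3K9ac peaks (percent) of each Fast list that is overlapped in each of the other 3 lists, by peak width in bp; lines join the width classes. Shares rise from 0.693% to 2.43% at 200 bp to 81.9% to 94.1% at 2 kb and above, and the lines for the same and the other state run close together.

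Of the 232904 regions, 205127 (88.1%) had a peak in 1 list, 15526 (6.67%) in exactly 2, and 6040 (2.59%) in all 4. Regions found in both +Tetra lists and neither -Tetra list numbered 2975 (1.28% of all regions), and those in both -Tetra lists and neither +Tetra list 1858 (0.798%). Most regions in exactly 2 lists thus joined 1 list of each state, so recurrence in 2 lists was not particular to lists of the same state. With peaks of at least 500 bp, the counts were 1354 (1.84% of 73632 regions) and 899 (1.22%). When each list was held to its 35889 top-scoring peaks, the order turned: 814 regions (0.698% of 116686) were one-state with tetracycline and 1092 (0.936%) without. That number is the whole of the second -Tetra list, so only the other lists were cut. The excess of +Tetra regions thus depended on which peaks were counted. It also rested on list 2: regions in 1 list and not in its counterpart numbered 42657 with and 24721 without tetracycline for the lists of number 2, and 82312 and 83340 for those of number 1. The number of regions tells how often peaks were called, and a lower number of cells and less acetylation per cell cannot be told apart in these bulk samples.

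**Figure D3:**
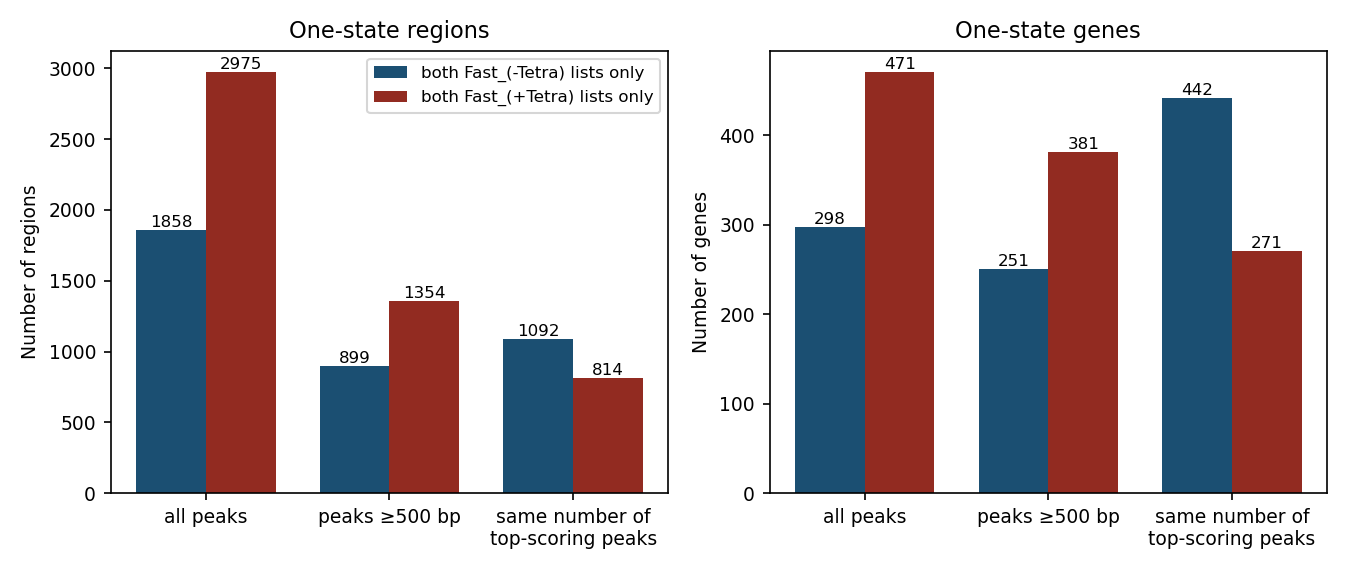
Number of regions (left) and protein-coding genes (right) with a peak in both lists of 1 state and neither of the other, for all peaks, peaks of at least 500 bp and the 35889 best-scoring peaks per list. Red bars (+Tetra) are higher for all and for wide peaks, and blue bars (-Tetra) are higher for the top-scoring peaks.

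Most one-state regions lay away from gene ends. Of the +Tetra-only regions 16.9% were at gene ends, 50.1% within genes and 33.0% between genes, with a median width of 704 bp. Of the -Tetra-only regions 17.6%, 48.4% and 34.0% were so placed, and their median width was 750 bp. The 6040 regions shared by all 4 lists were at gene ends in 75.9% and had a median width of 1889.5 bp. Over all regions 8.64% were at gene ends. With peaks of at least 500 bp the gene-end shares were 29.8% and 29.4%, and with top-scoring peaks 30.5% of +Tetra-only and 39.7% of -Tetra-only regions, so the 2 classes were alike in place for all and for wide peaks only.

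Peaks that took no part in choosing these regions were then read at them. H3K27ac in fasted mice covered 47.6% and 54.4% of the +Tetra-only regions in the -Tetra lists, and 51.5% and 45.4% in the +Tetra lists. At the -Tetra-only regions H3K27ac covered 42.4% and 48.0% in the -Tetra lists and 43.2% and 37.9% in the +Tetra lists. Over all regions the H3K27ac shares were 13.4%, 15.2%, 13.7% and 11.9%, lower than in either class. Of all regions, however, 88.1% had a peak in 1 list only, with a median width of 347 bp. One-state regions had to recur in 2 lists, so this comparison cannot set them apart from other recurring regions. The change in H3K27ac with tetracycline was -2.59 percentage points at +Tetra-only and -4.63 at -Tetra-only regions, against -1.48 over all regions. The difference between the classes was 2.04 points, in the direction of H3K9ac, with 3.02 by the lists of number 1 and 1.06 by those of number 2. The change itself varied far more with the list number, from 3.83 points at the +Tetra-only regions by list 1 to -9.01 by list 2, so a difference of this size was small beside the spread between lists.

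H3K9ac in fed mice was read likewise. At +Tetra-only regions, 12.5% and 34.3% had a peak in the Fed_(-Tetra) lists and 22.6% and 27.3% in the Fed_(+Tetra) lists. At -Tetra-only regions the shares were 15.7% and 34.7%, and 21.7% and 30.8%. The tetracycline change in fed mice was 1.53 points at +Tetra-only and 1.1 at -Tetra-only regions, and they differed by 0.43 points (2.18 with wide and 2.57 with top-scoring peaks, against 3.53 and 2.4 for H3K27ac). By list number this difference was 4.0 points for list 1 and -3.15 for list 2, opposite in sign.

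At the gene level, 471 genes (2.15% of 21887) were marked only in both +Tetra lists and 298 (1.36%) only in both -Tetra lists. Exactly 2 lists marked 2465 genes (11.3%), most of them in 1 list of each state. With peaks of at least 500 bp, 381 (1.74%) and 251 (1.15%) genes were one-state, and with the top-scoring peaks 271 (1.24%) and 442 (2.02%), again with the order turned. Of the 471 and 298 genes, 265 and 175 were also one-state with wide peaks, and 100 and 78 were so under all 3 readings. Fed H3K9ac lists marked 35.2% and 58.0% of the +Tetra-only genes without tetracycline and 44.4% and 53.5% with it. For the -Tetra-only genes these shares were 44.3% and 65.8% without tetracycline and 46.3% and 56.0% with it, and over all genes 41.1% and 51.7%, and 43.1% and 49.5%. Of the 5725 genes marked in all 4 Fast lists, 90.1% to 97.5% were marked in each Fed H3K9ac list.

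The strongest genes marked only with tetracycline, ranked by the lower of the 2 within-list score percentiles, were also marked in most other lists of the series. Camkmt, a calmodulin lysine methyltransferase, and Prepl, a prolyl endopeptidase-like hydrolase, share a head-to-head promoter on chromosome 17 (Prepl at chr17:85062511-85090504), with peaks of 1228 and 1126 bp at percentiles 98.1 and 96.8 in the +Tetra lists. The nearest -Tetra peaks lay 4.25 and 9.33 kb from Prepl. Coro7, a coronin of the Golgi (chr16:4626884-4679720), had peaks of 1073 and 1808 bp, and the -Tetra lists had none closer than 1.69 kb. Timm22, a channel that inserts carrier proteins into the inner mitochondrial membrane, had +Tetra peaks of 715 and 1502 bp. Marveld3, a tight junction protein, had +Tetra peaks of 895 and 1511 bp, with a -Tetra peak 1.08 kb away, just outside the window. Lamtor2, part of the lysosomal Ragulator complex that recruits mTORC1, and Ubqln4, a ubiquitin-binding shuttle of the proteasome, share peaks of 1711 and 2564 bp. Lrrc20, Lrrc58 and Armh1 complete the 10. H3K27ac marked 9 of these 10 genes in all 4 Fast lists, and Armh1 in 3 of 4. In fed mice, 8 of the 10 were marked by H3K9ac in all 4 lists, and Timm22 and Lrrc20 in 3. The absence of H3K9ac peaks in the fasted -Tetra lists thus stood beside an acetylated promoter in H3K27ac and in fed crypts.

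Genes marked only without tetracycline were of a like kind. Tmem88b (chr4:155781591-155785874) had peaks of 1204 and 1430 bp at percentiles 98.5 and 94.6, and +Tetra peaks began 1.08 and 1.09 kb from the gene, just outside the window. Rassf6, a Ras-association protein of the Hippo pathway (chr5:90603076-90640734), had peaks of 1926 and 1641 bp at percentiles 99.4 and 94.0, and the nearest +Tetra peaks lay 7.37 and 1.18 kb away. Plekhg3, a guanine nucleotide exchange factor, had peaks of 2424 and 2722 bp. Mitochondrial genes were present here too: Ndufc1, a subunit of respiratory complex I, had peaks of 793 and 1379 bp, and Slc25a13, the aspartate-glutamate carrier citrin, 1048 and 1088 bp. Gtf3c2 (transcription factor IIIC), Tmbim1 (a BAX inhibitor motif protein), Uxs1 (UDP-xylose synthase), Eif3e (translation initiation factor 3) and Spty2d1 (a histone chaperone) completed the 10. Of these 10 genes, 7 were marked by H3K27ac in all 4 Fast lists. In fed mice 8 of the 10 were marked by H3K9ac in all 4 lists, Gtf3c2 in 3 and Tmem88b in 1.

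More than 1 kb from every gene end lay 2473 +Tetra-only and 1531 -Tetra-only regions. The strongest with tetracycline were chr4:141513739-141515156 within Spen, chr2:4721254-4722147 within Bend7 and chr10:24131954-24133059, 16.2 kb from Stx7. The strongest without were chr5:113216142-113220241 within 2900026A02Rik, with peaks of 2430 and 4100 bp, chr17:57275140-57276564, 2.54 kb from Vav1, and chr12:54312928-54313639, 109.0 kb from Egln3, a prolyl hydroxylase that acts on hypoxia-inducible factors. Of these 6 regions, 5 had an H3K27ac peak in all 4 Fast lists, and the one near Vav1 in 3 of 4. Exons and introns were not separated.

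Microbe-induced defence genes, 17 in the table, were marked in 6 and 11 cases without tetracycline and in 7 and 6 with it. With peaks of at least 500 bp the counts were 5 and 10 without tetracycline and 4 and 3 with it, with no overlap, against 42.0% and 40.3%, and 45.4% and 38.8%, of all genes at that width. Duox2 and Duoxa2 share 1 peak in each -Tetra list; counted once, the wide-peak counts were 4 and 9, and 4 and 3, and the states met. With equal numbers of top-scoring peaks they were 3 and 11, and 3 and 2, which also met. The second -Tetra list alone stood high throughout: with all peaks it marked 64.7% of the list, against 43.3% of all genes, and the others 35.3% to 41.2%, against 43.1% to 53.2% of all genes. Only 1 of the 17 genes, Reg3b, was one-state with all peaks, and 2, Duox2 and Duoxa2, with wide peaks; these numbers are too small to set apart from the 1.36% and 1.15% of all genes.

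Reg3b encodes a secreted C-type lectin that kills bacteria (chr6:78370885-78373466, plus strand). In the first -Tetra list a 200 bp peak lay from 281 to 480 bp after its start. In the second -Tetra list a 997 bp peak ran from -279 to 717 bp, over the start site and the TATA box shown above, and a second of 584 bp from 1666 to 2249 bp. The closest peaks of the +Tetra lists were 18.6 and 51.8 kb away. H3K27ac peaks of 556 and 1127 bp covered the Reg3b start in the Fast_(-Tetra) lists, and one of 762 bp in the second Fast_(+Tetra) list. In fed mice 1 list marked it, H3K27ac with tetracycline (548 bp). Its paralog Reg3g had a 570 bp H3K9ac peak in the second -Tetra list alone, near its 3′ end. Reads could be split between Reg3b and Reg3g where their sequences match, and how the authors treated such reads is not given in the sources used here.

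Duox2, the epithelial NADPH oxidase that releases hydrogen peroxide, and Duoxa2, the factor that matures it, are transcribed in opposite directions from 1 promoter (Duoxa2 at chr2:122298900-122302885, plus strand). Around the Duoxa2 start the -Tetra peaks were 950 and 554 bp wide, from -804 to 145 bp and from -56 to 497 bp. In the +Tetra lists a 351 bp peak of list 2 covered -170 to 180 bp, and list 1 had a 252 bp peak from 917 to 1168 bp. All 4 lists thus marked Duoxa2, and the peaks near the start were wider without tetracycline. In fed mice the promoter was marked by H3K27ac in both Fed_(-Tetra) lists, with peaks of 1249 and 1080 bp, and in neither Fed_(+Tetra) list. Fed H3K9ac marked it in the second -Tetra list (899 bp) and in no +Tetra list. In the fasted mice H3K27ac marked Duoxa2 in 1 list of each state, through peaks around its 3′ end. These ran from 3645 to 4534 bp after the start without tetracycline and from 3668 to 4390 bp with it. Duox2 was marked in none, so no Fast H3K27ac peak lay at the shared promoter.

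Of the remaining defence genes, Saa1 and Saa2, serum amyloid A proteins that carry retinol and bind bacteria, had peaks of 601 and 830 bp in the second -Tetra list alone, at low score percentiles of 1.4 and 11.7. Lcn2, which withholds iron from bacteria, was marked in that list alone too, with 824 bp. Nos2 (inducible nitric oxide synthase) was marked by Fast H3K9ac only in the first +Tetra list. Fast H3K27ac marked it in 2 -Tetra lists and 1 +Tetra list, Fed H3K9ac in 2 and 0, and Fed H3K27ac in 2 and 2. Pigr, the receptor that carries antibodies into the lumen, was marked in all 4 lists, with peaks of 2119 and 2469 bp without tetracycline and 785 and 2314 bp with it. Il18 had peaks of 979 and 1842 bp with tetracycline, and 2315 bp in the second -Tetra list. Retnlb, Ido1 and Zbp1 were marked in no Fast H3K9ac list. Fast H3K27ac marked Zbp1 in 2 -Tetra lists and 1 +Tetra list, as did Fed H3K9ac and Fed H3K27ac. For the same 17 genes, Fed H3K9ac lists marked 6 and 8 without tetracycline and 3 and 3 with it. Fed H3K27ac lists marked 7 and 7, and 4 and 6, and Fast H3K27ac lists 6 and 8, and 4 and 6. These 3 sets of lists took no part in the Fast H3K9ac comparison; the Fast H3K27ac counts met at 6. With Duox2 and Duoxa2 counted once, the Fed H3K27ac counts were 6 and 6, and 4 and 6, and met as well. The Fed H3K9ac counts were then 6 and 7, and 3 and 3, without overlap, where 41.1% and 51.7% of all genes were marked without tetracycline and 43.1% and 49.5% with it. For Fed H3K27ac the shares of all genes were 44.6% and 49.9%, and 44.0% and 49.0%.

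**Figure D4:**
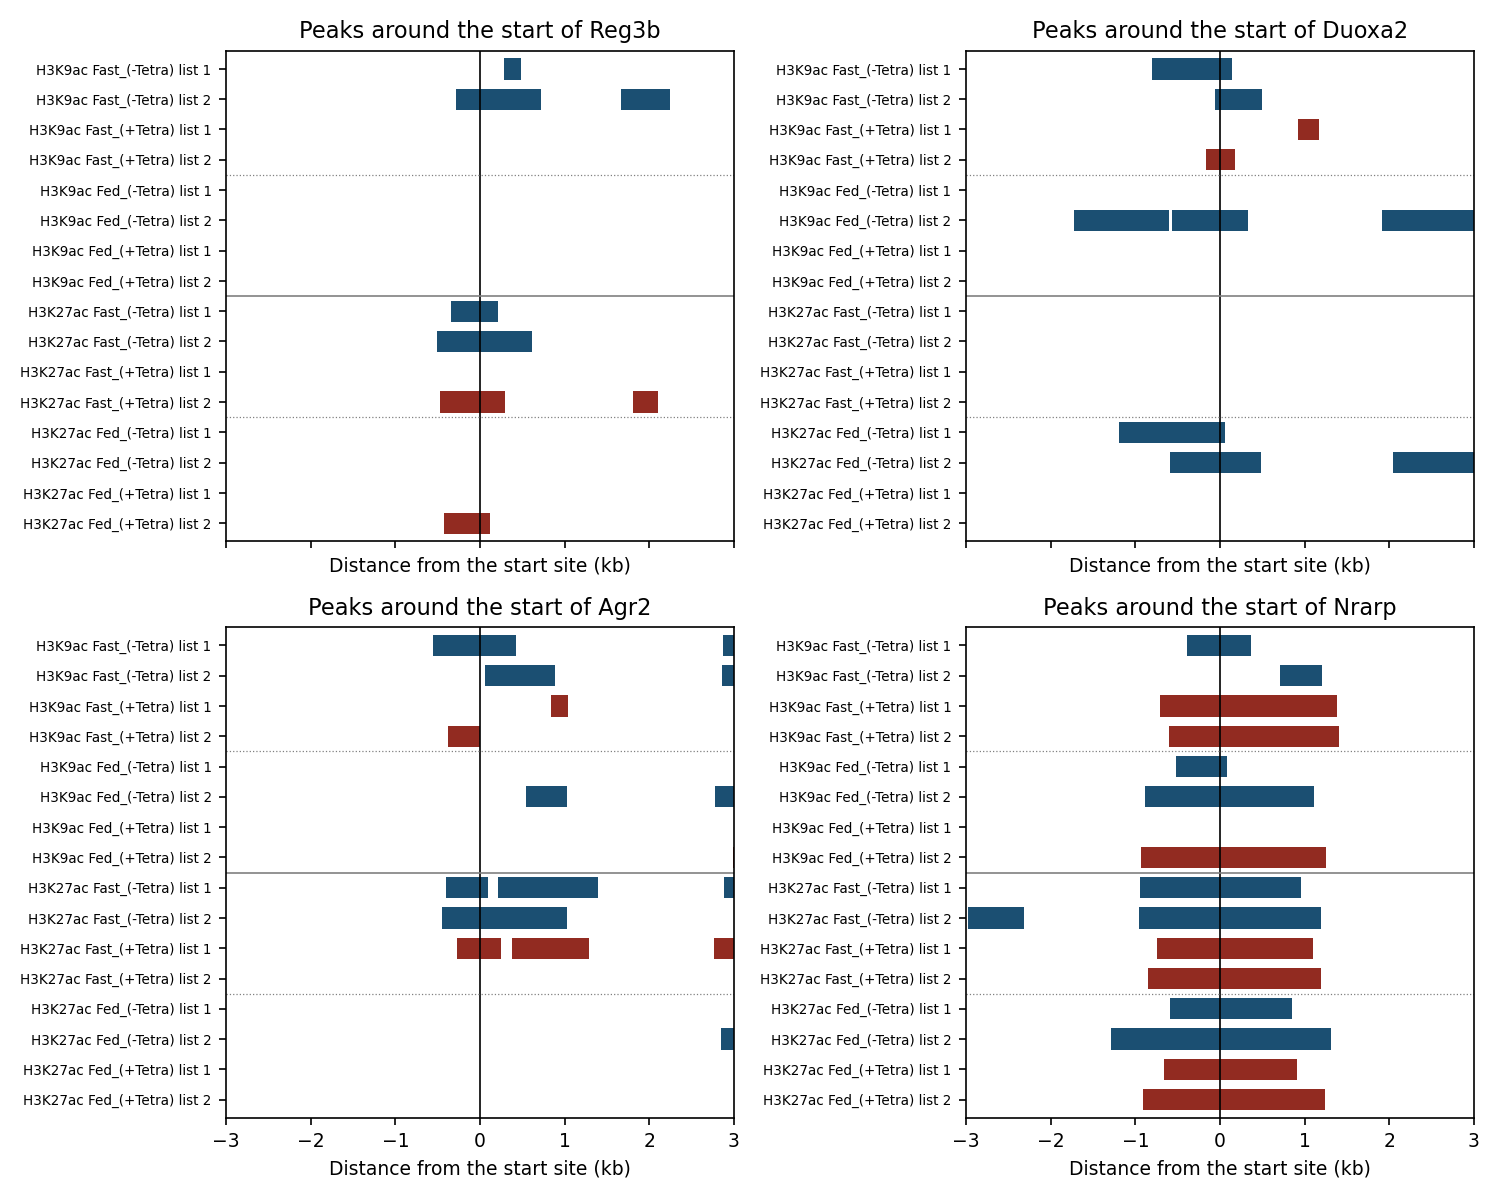
Peaks (horizontal bars) around the start sites of Reg3b, Duoxa2, Agr2 and Nrarp in all 16 lists, by distance from the start site in kb, positive in the direction of transcription; blue lists are without and red lists with tetracycline, and grey lines part feeding states and marks. At Reg3b the Fast H3K9ac peaks are in the -Tetra lists only, and at Nrarp the Fast +Tetra peaks, 2090 and 2012 bp, are wider than the -Tetra peaks, 750 and 504 bp.

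Other groups of genes were read in the same way. Microbial sensors were marked in 14 and 9 of 18 cases without tetracycline and 12 and 10 with it, with Myd88, Nod1 and Nlrp6 in all 4 lists. Genes that sense microbial metabolites and bile acids were marked in 7 and 5, and 5 and 7, of 15 cases, with Ahr and Vdr in all 4. Of 9 Paneth cell genes, 0 and 2 were marked without tetracycline and 2 and 1 with it. Of 7 genes of antigen presentation by MHC class II, 1 and 1 were marked without tetracycline and 3 and 4 with it, where the lists marked 50.3% and 43.3%, and 53.2% and 43.1%, of all genes. In fed mice the H3K9ac counts were 1 and 4, and 2 and 2. H2-DMb1, which helps load peptides, was one-state, with +Tetra peaks of 656 and 200 bp. With wide peaks the MHC class II counts were 1 and 1 against 2 and 1. Immune cell genes, a source of MHC class II, were marked in 7 and 4 of 16 cases without tetracycline and 7 and 4 with it by all peaks, and in 3 and 3, and 7 and 3, by wide peaks. Their part in the result was not tested.

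Regeneration genes were marked in 4 and 3 of 14 cases without tetracycline and 6 and 5 with it, and in 4 and 2 against 6 and 4 with wide peaks, which met at 4. The all-peak counts stood beside 50.3% and 43.3%, and 53.2% and 43.1%, of all genes. With top-scoring peaks the regeneration counts were 2 and 3, and 2 and 5, and by Fed H3K9ac 2 and 7, and 5 and 5, so that the groups overlapped in both. Ly6a (Sca-1), a surface protein of the repairing epithelium, was one-state with tetracycline. Its best-scoring peaks, 725 and 202 bp wide, lay at opposite ends of the gene. No Fed list and 1 Fast H3K27ac list, without tetracycline, marked it. Clu, Anxa3 and Areg were marked in the first +Tetra list alone, and Yap1 in all 4 lists. Genes of stroma, muscle, vessels and nerves were marked in 3 and 1 of 18 cases without tetracycline and in 8 and 1 with it. The first +Tetra list, highest here, also marked the largest share of all genes (53.2%). With wide peaks the stroma, muscle, vessel and nerve counts were 1 and 1, and 3 and 0. Ret, a receptor of enteric neurons, was one-state with +Tetra peaks of 1002 and 397 bp. How far such cells bear on the regeneration genes was not tested.

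Crypt stem cell genes were marked in 8 and 8 of 12 cases without tetracycline and 9 and 6 with it. Olfm4, a stem cell marker, was marked in all 4 lists, with peaks of 860 and 1384 bp without tetracycline and 873 and 1090 bp with it. The 873 bp peak of the first +Tetra list lay at its 3′ end (score percentile 8.15), and the others at its start. Lgr5, the receptor that defines crypt base stem cells, had peaks of 466 bp in the second -Tetra and 477 bp in the first +Tetra list. They lay at opposite ends of the gene, and neither state marked it in both lists. Lyz1, lysozyme of Paneth cells, had peaks of 393 and 352 bp in the second list of either state, at its 3′ end without tetracycline and at its start with it. Of 16 genes of secretory lineages, 4 and 4 were marked without tetracycline and 6 and 3 with it. Fcgbp, a mucus protein of goblet cells, was one-state without tetracycline, its best-scoring peaks 407 and 1527 bp wide, while H3K27ac marked it in all 8 lists. Agr2, which folds mucins in goblet cells, had a peak in all 4 lists, of 984 and 837 bp without tetracycline and 200 and 370 bp with it.

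**Figure D5:**
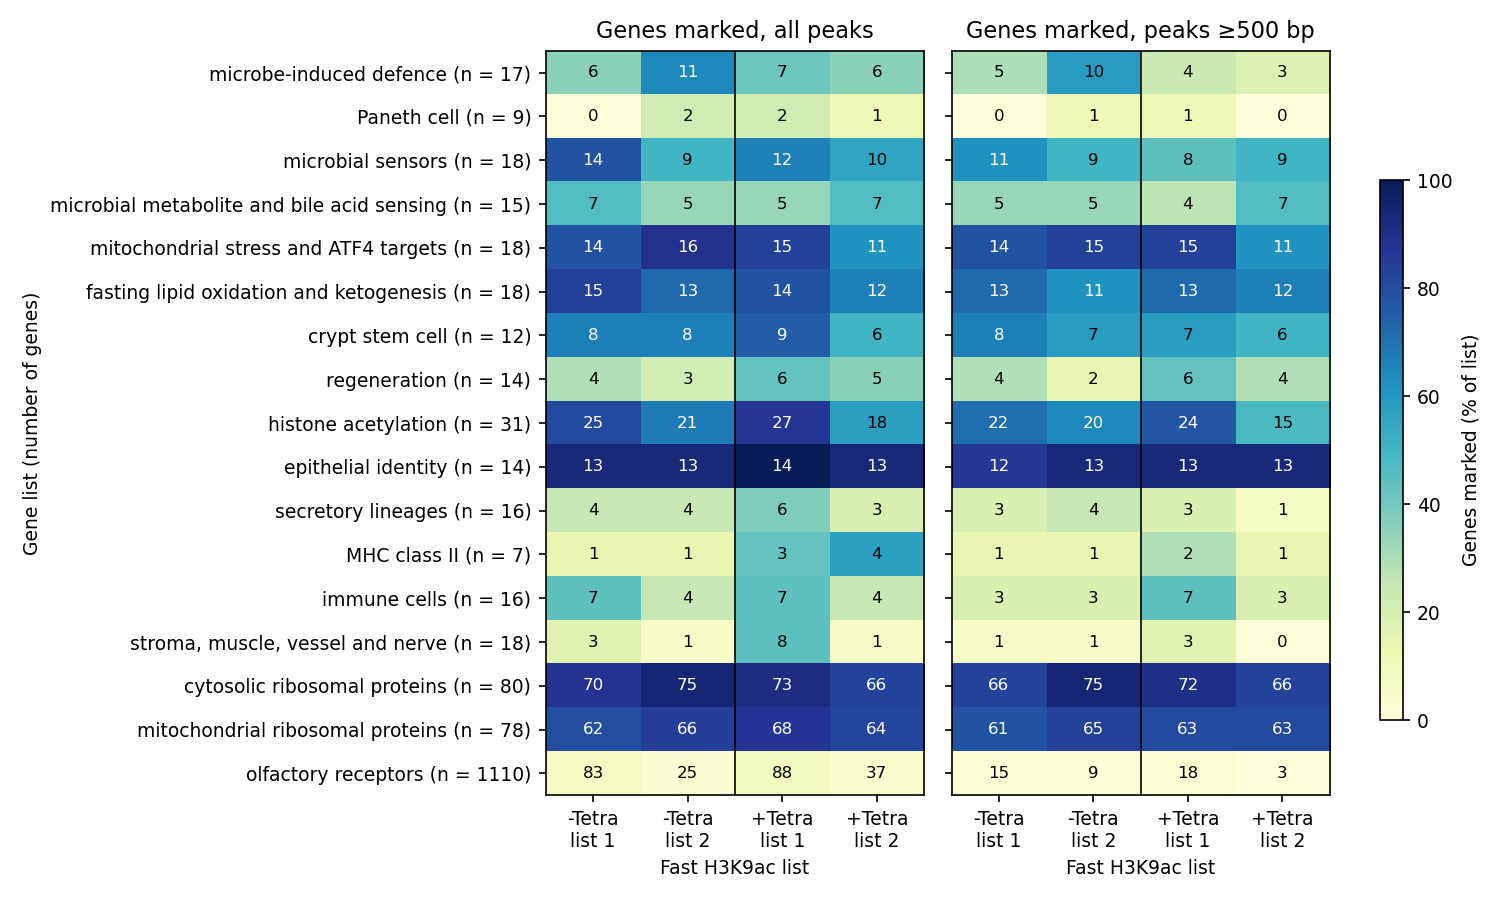
Genes of each list marked in the 4 Fast H3K9ac lists, for all peaks (left) and peaks of at least 500 bp (right); numbers are genes marked and the color is their share of the list in percent. The microbe-induced defence genes reach 11 of 17 in the second -Tetra list and 6 or 7 in the others, and epithelial genes are marked in 13 or 14 of 14.

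Fasting shifts the gut toward fat oxidation and ketone production, and genes of this program were marked in 15 and 13 of 18 cases without tetracycline and 14 and 12 with it, 9 of them in all 4 lists. Cpt1a, which admits fatty acids to mitochondria, had peaks of 942 and 4950 bp without tetracycline and 3477 and 5457 bp with it. Pdk4, which spares glucose by blocking pyruvate dehydrogenase, had peaks of 1937 and 3896 bp with tetracycline and 1772 bp in the first -Tetra list. No gene of the program was one-state with all peaks. Oxct1, which uses ketone bodies, was one-state for wide peaks, with 1140 and 1868 bp under tetracycline and a 487 bp peak in the second -Tetra list.

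Mitochondrial stress genes and targets of ATF4 were marked in 14 and 16 of 18 cases without tetracycline and 15 and 11 with it, and none was one-state. Atf4, the transcription factor of the integrated stress response, had peaks of 790 and 4913 bp without tetracycline and 1907 bp in the first +Tetra list. The 790 bp peak lay at its 3′ end. Ddit3 (CHOP) had 1087 and 4517 bp without tetracycline and 1508 and 5253 bp with it. Trib3, an ATF4 target, had 1282 and 930 bp, and 1094 and 1733 bp, with the 1282 bp peak at its 3′ end and the others at its start. Chac1, which degrades glutathione, was marked at its start in both -Tetra lists and at its 3′ end in the first +Tetra list. Asns (asparagine synthetase) was marked in both +Tetra lists and the second -Tetra list. The second +Tetra list marked the fewest of these genes, and the 2 lists of that state differed by 4 genes. Proteins of the mitochondrial ribosome were marked in 62 and 66 of 78 cases, and 68 and 64. Mrpl45 was one-state with tetracycline (747 and 723 bp) and Mrpl43 without (1212 and 1070 bp). Cytosolic ribosomal protein genes were marked in 70 and 75 of 80 cases, and 73 and 66; Rpl3l, a muscle paralog, was the one-state member, without tetracycline, through a peak at its 3′ end.

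Genes that write, remove, read or supply histone acetylation were marked in 25 and 21 of 31 cases without tetracycline and 27 and 18 with it. Hdac8, an X-linked deacetylase, was one-state with tetracycline, with peaks of 339 and 1351 bp. Acly and Acss2, which make acetyl-CoA, were marked in every list but the second +Tetra list, and Ep300 and Hdac3 in all 4. Olfactory receptor genes, which crypt epithelium is not known to use as a class, were marked in 83 and 25 of 1110 cases without tetracycline and 88 and 37 with it, and in 15 and 9, and 18 and 3, by wide peaks. Olfr560 and Olfr689 were one-state with tetracycline, and Olfr617, Olfr703, Olfr522 and Olfr963 without it, none of them with wide peaks.

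Peak width was compared at the 6040 constant regions, those found in every Fast list. The median covered width was 1185 and 1439 bp without tetracycline and 1213 and 1546.5 bp with it. The mean log2 width was 0.08 higher with tetracycline (exact permutation p = 0.667), and was higher for list 1 and for list 2. After each list was divided by its median, 891 regions (14.8%) were wider in both +Tetra lists than in either -Tetra list, and 978 (16.2%) narrower. Each direction is 1 of the 6 arrangements of the lists over 2 and 2, and neither share exceeded 1 in 6. The middle 90% of scaled log2 ratios lay between -0.65 and 0.72, so neither direction prevailed. The regions below were chosen for this difference and are described without a test.

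Nrarp, a target and inhibitor of Notch signaling (region chr2:25180053-25182171), widened most with tetracycline, from 750 and 504 bp to 2090 and 2012 bp. The second -Tetra peak lay inside the gene, from 707 to 1210 bp, while both +Tetra peaks covered the start. H3K27ac there covered 1900 and 2148 bp without tetracycline and 1844 and 2053 bp with it, so the widening was not shared by that mark. In fed mice H3K9ac covered 600 and 2004 bp of the Nrarp region without tetracycline and 0 and 2197 bp with it. Fed H3K27ac covered 1441 and 2600 bp without tetracycline and 1567 and 2153 bp with it. Gsta1, a glutathione transferase, went from 415 and 583 bp to 982 and 2412 bp. Deptor, an inhibitor of mTOR, went from 601 and 715 bp to 2192 and 1809 bp. Rps6ka1, a ribosomal S6 kinase, was covered over 388 and 3228 bp without tetracycline and 2830 and 4240 bp with it, so its raw widths overlapped. The histone genes H2ac6 and H2bc4 share a region that went from 2245 and 651 bp to 3586 and 3863 bp. Among regions narrower with tetracycline, Agr2 led with a scaled log2 ratio of -1.81. Its 2 +Tetra peaks, from 838 to 1037 bp and from -374 to -5 bp, did not overlap. Fast H3K27ac covered 1674 and 1475 bp of the Agr2 region without tetracycline, and 1424 and 0 bp with it. The list with 0 bp had an H3K27ac peak of 1897 bp at the gene ends, outside this region. In fed mice H3K9ac covered 0 and 496 bp of the region without tetracycline and 0 bp in either list with it, and H3K27ac 0 bp in every list. Ceacam18, of the carcinoembryonic antigen family, went from 1631 and 2155 bp to 420 and 870 bp. Slc25a45 went from 1977 and 3601 bp to 818 and 974 bp, and Raph1, which links Ras signaling to actin, from 2038 and 2491 bp to 680 and 871 bp. The promoter shared by Fam126b and Ndufb3, a complex I subunit, went from 1883 and 2121 bp to 1507 and 280 bp. In the fed H3K9ac lists Slc25a45 was covered over 2817 and 4089 bp without tetracycline and 4494 and 4134 bp with it.

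Promoter composition followed how many lists marked a gene. The median number of CpG in the 250 bases before the start was 2 in genes marked in no list, 5 in those marked in 1, 12 in 2, 15 in 3 and 17 in all 4. Genes marked only with and only without tetracycline both had a median of 12, that of genes in 2 lists in general. GC boxes were present in 49.3% of +Tetra-only and 53.2% of -Tetra-only promoters, against 61.1% for genes in all 4 lists and 19.2% for genes in none. TATA boxes were present in 8.99% and 8.58%, against 6.07% and 21.6%. STAT-type matches, as in Reg3b, occurred in 6.81% and 5.15%, against 5.8% and 7.72%. The 2 one-state classes thus lay within 4 percentage points of each other in each of the 5 motifs.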

How the data were processed

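CUT&Tag peak lists were used as deposited: 2 lists for each of 8 samples, numbered only in their deposited names. Per the submitters' processing notes, FastQC, Bowtie and SAMtools were used with mm10; versions, peak caller settings and the use of IgG are not given in the sources used here. Each list holds 1 score per peak from the authors, with no stated unit, which served only to rank peaks within a list. Depth is unknown.

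Peaks on chromosomes 1 to 19, X and Y were merged where they overlapped by at least 1 bp. Genes and promoters came from RefSeq tables for GRCm38.p6, the assembly that mm10 names. Peak number, covered length, gene-end share and mean log2 width were tested by exact two-sided permutation of the 4 lists (6 arrangements). The 4 tests could not pass 0.05, so no adjustment was made. Regions, genes and gene lists were counted without a test.

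The named genes were up to 10 per direction by the lower within-list score percentile, up to 3 regions away from gene ends and 5 by width ratio per direction, every one-state gene of the lists (olfactory receptors included), and 16 genes named whatever their values. Some genes that this rule names are not reported here. Duoxa2, Saa2, Lcn2, Pigr, Il18 and other list members outside this rule were chosen after their values were seen. Members, gene lists and tests were chosen with earlier results of these data known. Of the listed genes, Pla2g2a had no entry. Simulated lists with planted regions served to check the counting. Alternatives were peaks of at least 500 bp, equal numbers of top-scoring peaks, leaving out a list number, bridging gaps of up to 500 bp, a 2.5 kb window, start sites only, all genes, and pairs of list numbers. Gene lists read by wide peaks, and H3K27ac and Fed H3K9ac read at top-scoring regions or by 1 list number, and counts with Duox2 and Duoxa2 taken as 1 gene, were added after the data were seen. Python 3.11.15, numpy 2.4.6, pandas 2.3.3 and matplotlib 3.10.9 were used.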

Additional observations from a re-analysis of the deposited data

How the results depend on the processing

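No list-level difference kept its sign under every alternative except constant-region width, which was 0.05 to 0.08 (log2) throughout. With peaks of at least 500 bp, the peak-number ratio reversed to -0.114 and the gene-end difference to 2.71 points; one-state regions fell to 1354 with and 899 without tetracycline. With equal numbers of top-scoring peaks, covered length reversed to -0.127 and the log2 ratio of one-state regions to -0.424 (main value 0.68); the counts were 814 and 1092 regions and 271 +Tetra-only genes. Leaving out list 1 or list 2 gave, per result: peak number -0.0189 to 0.571, covered length -0.00208 to 0.167, gene-end share -8.73 to 0.773 points, and one-state ratio -0.0179 to 0.787. With 1 list per state, one-state regions numbered 42657 to 82312 (+Tetra) and 24721 to 83340 (-Tetra), and genes 2299 to 3010 and 2333 to 2378, since a single list must then hold the region. Start sites alone gave 309 +Tetra-only genes, and all 49943 genes of the table gave 858 and 504. At one-state regions, Fed H3K9ac read by list 2 alone reversed to -3.15. The replicate block, pairing lists of 1 number, gave the same differences (peak number 0.276, covered length 0.0825, gene-end share -3.98, width 0.0798) with exact sign-flip p of 0.5 or 1.0, the smallest possible being 0.5; whether the numbers pair the lists is not known. The causes of these changes were not tested. Without depth, a missing peak cannot be read as missing acetylation.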

Other observations

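MicroRNA genes, read within 1 kb of their RefSeq hairpins, were marked in 241 and 132 of 1005 cases without tetracycline and 227 and 159 with it. H3K9ac marked 49 of them in all 4 lists, 18 (1.79%) in both +Tetra lists only, among them Mir193a and Mir32, and 12 (1.19%) in both -Tetra lists only, among them Mir92b and Mir338. Over all protein-coding genes these shares were 2.15% and 1.36%.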
